A study of Mus musculus with 51 samples.

Results

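Gene expression was compared between day 4 and day 2 of differentiation in mouse C3H/10T1/2-SAM cells that had received an empty vector plasmid. These cells are the control arm of a gene activation experiment, and 12 of the study's 51 RNA-seq libraries belong to the comparison, 6 at each day. C3H/10T1/2 is a mesenchymal line that can be turned into fat cells, and the SAM derivative carries dCas9-VP64 and MS2-P65-HSF1, the protein parts of a guide-directed gene activator, in every group. Cells of the empty vector (EV) arm received 250 ng of the empty plasmid, and the other arms received the same amount of plasmid with a guide RNA for Pparg (P) or with guides for Pparg and Ybx1 (PY). All groups were given 5 µM rosiglitazone, a drug that binds and activates the nuclear receptor PPARG, at day 0, which was 48 h after transfection. The labels tie each day 2 library to the day 4 library of the same experiment, so there were 6 pairs, and all genes were examined: 14644 of the 53801 in the count table had enough counts to be tested. No EV library without rosiglitazone was used here, so time in culture and time with the drug cannot be told apart, and the labels do not say whether the line is 1 clone.

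When precursor cells become fat cells, they leave the cell cycle, change the matrix and adhesion proteins they make and switch on genes bound by PPARG and by the C/EBP factors, which then build the machinery for storing lipid. Spread, growing fibroblasts keep up another set of genes through the mechanical and serum response factors SRF and YAP with TEAD, and AP-1 carries growth factor signals to much of the same set. C3H/10T1/2 cells can also take on features of smooth muscle, cartilage or bone, so markers of those fates were followed beside the fat cell genes.

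Total counts ran from 11261100 to 71091681 at day 2 and from 11319350 to 29185878 at day 4. None of 5 library measures passed between the days in an exact sign-change test of the 6 pairs, two-sided. The smallest exact p was 0.219, for the share of counts on the 100 most counted genes (adjusted p = 0.562 over the 5 measures). That share was higher at day 4 in 5 of 6 pairs. The smallest p this design allows is 0.0312 before adjustment. A single measure therefore could not pass after adjustment over the 5, and the test cannot show that the days were alike. The share of counts on mitochondrially encoded genes was 1.75 to 4.47% at day 2 and 1.10 to 7.14% at day 4. The mesenchymal markers were present in all 12 libraries, with Pdgfrb (a platelet-derived growth factor receptor) at 350.4 to 619.7 CPM, Ly6a (the surface protein Sca-1) at 224 to 869 and Thy1 (CD90) at 16.2 to 55.7. CPM are counts scaled to a common library size, with TMM factors. Experiment 4 stood apart at both days. Over the 14644 genes tested, its library was the extreme of its group, by a gap above 0.625 of the group's range on the log2(CPM + 0.5) scale, for 910 genes at day 2 and 332 at day 4, against 5 to 231 and 18 to 127 genes for the libraries of the other experiments. The 12 libraries also differed by experiment and by day. On the first principal component, which held 47.0% of the variance, experiment accounted for 67.2% and day for 31.9%. These shares are not corrected for the number of levels, which is larger for experiment than for day, so they cannot be ranked.

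Between day 2 and day 4, 3639 genes (24.8% of those tested) passed at an adjusted p under 0.05 in edgeR's quasi-likelihood test with the experiment as a block. Of these, 1885 (12.9%) were higher at day 4 and 1754 (12%) lower, and 2967 moved the same way in all 6 experiments. Changes were mostly moderate: 351 genes passed with more than a 2-fold rise and 204 with more than a 2-fold fall, and the median size among genes that passed was log2 0.54, while the median over all genes tested was 0.00. The largest changes were ranked among protein-coding genes that passed, with a mean of at least 1 CPM and the same direction in 6 of 6 experiments. Of these the largest rise was in Pi16, a marker of progenitor fibroblasts. The 12 largest falls included Ccn2, a matrix-bound growth factor adaptor, and Ptgs2, the inducible cyclooxygenase. For most genes the 2 days overlapped in level although each pair moved the same way: in only 199 genes (1.36%) did every day 4 library lie above every day 2 library, and in 95 (0.649%) below, whereas 1999 (13.7%) were higher and 1839 (12.6%) lower in 6 of 6 experiments. The calls therefore rest on the pairing. Without the experiment block 5 genes passed, all higher at day 4 (Rftn2, Clec11a, Anpep, Rnase4 and Smoc2, named after their values were seen), and none of the genes described below did. With experiment 4 left out 3590 genes passed, and with experiment 6 left out 1971. The p-values measure the day change against its spread among the 6 pairs, after the block takes out differences in level between experiments. The labels do not say what, beyond the experiment number, separates the experiments.

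**Figure D1:**
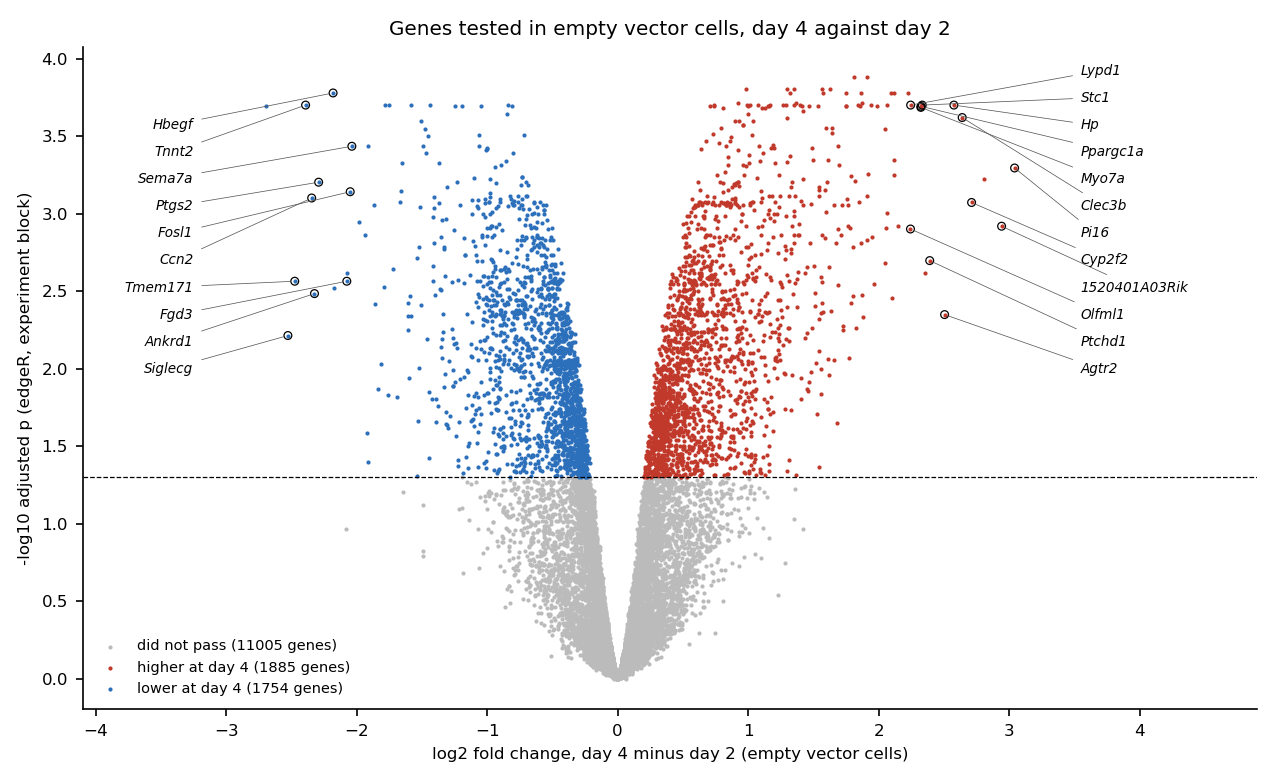
Each point is 1 of the 14644 genes tested in EV cells, by log2 fold change of day 4 against day 2 (x) and -log10 of the adjusted p from edgeR with the experiment block (y). The dashed line is the 0.05 threshold, 1885 genes above it were higher and 1754 lower at day 4, and the ringed genes are those of the 12 largest rises and 12 largest falls that the text names.

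Several of the 12 largest falls were in genes known from the wound, mechanical and growth factor responses. Ccn2 (ENSMUSG00000019997, chromosome 10, 24595442 to 24598683, plus strand; GRCm38, as all positions below), a standard target of YAP with TEAD, was at 435, 66.2, 98.8, 1685, 385 and 996 CPM in experiments 1 to 6 at day 2 and, in the same order, 32, 6.69, 24.6, 530.3, 143 and 237 CPM at day 4. It was lower at day 4 in 6 of 6 experiments, with the highest levels in experiments 4 and 6. Experiment 4 at day 4 was as high as other experiments at day 2, so the groups overlapped. Ccn2 fell 5.08-fold (log2 -2.34 ± 0.29 SE, adjusted p = 0.000789). Ankrd1, a muscle and stress ankyrin-repeat protein and another YAP target, ran from 13.4 to 239 CPM at day 2, median 26.1, and 0.807 to 88.4 at day 4, median 5.50, 5.00-fold lower (log2 -2.32 ± 0.41 SE, adjusted p = 0.00327). Tnnt2, which encodes the troponin T of heart muscle, was 5.24-fold lower (adjusted p = 0.000199).

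Ptgs2 (ENSMUSG00000032487, chromosome 1, 150100031 to 150108227, plus strand), whose enzyme makes prostaglandins, was at 157, 51.7, 109, 1419.5, 185 and 245 CPM in experiments 1 to 6 at day 2 and, in the same order, 67, 4.34, 32.5, 257, 53.2 and 28.2 CPM at day 4. Experiment 4 was the highest and experiment 2 the lowest at both days, and all 6 pairs were lower at day 4, 4.89-fold in the fit (log2 -2.29 ± 0.27 SE, adjusted p = 0.000624; 0.00107 without experiment 4). Hbegf, a membrane-bound ligand of the EGF receptor, ranged over 11.8 to 160.2 CPM at day 2, median 26.8, and 2.08 to 39.4 at day 4, median 6.28, and fell 4.53-fold (log2 -2.18 ± 0.17 SE, adjusted p = 0.000166). Ereg, another ligand of that receptor, was named after its values were seen and was 3.15-fold lower (adjusted p = 0.000708). Sema7a, a membrane-anchored semaphorin, fell 4.10-fold (adjusted p = 0.000366). Fgd3, an exchange factor for the small GTPase Cdc42, was at 21 to 363 CPM at day 2, median 58.7, and 2.42 to 102 at day 4, median 16.5, and fell 4.21-fold (adjusted p = 0.00272). Siglecg, a sialic acid-binding lectin, and Tmem171 fell 5.76-fold and 5.56-fold (adjusted p = 0.00609 and 0.00272). In each of the largest falls named here the 2 groups overlapped and experiment 4 was the highest library at both days.

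Genes of the immediate early response and AP-1, which growth factors and cell stretch switch on quickly, fell more often than they rose. Of 22 tested, 12 passed as lower and 1 as higher, against 12% and 12.9% of all genes, and the median was log2 -0.71 against 0.00 over all genes. Fosl1, the AP-1 subunit FRA1, was at 31.8, 12.9, 35.2, 199, 35.9 and 53.9 CPM in experiments 1 to 6 at day 2 and, in the same order, 13, 1.92, 14.3, 36.5, 12.8 and 5.83 CPM at day 4. The fall was 4.14-fold (log2 -2.05 ± 0.25 SE, adjusted p = 0.000719). Its day 4 values in experiments 1, 3 and 4 exceeded the day 2 value of experiment 2, although each was below its own partner. Ier3, a survival factor of the early response, fell 2.28-fold (18.3 to 147 CPM at day 2, median 33.4, and 11.8 to 50.9 at day 4, median 15.1; adjusted p = 0.000202). Ccn1, a matrix protein and YAP target related to Ccn2, fell 2.47-fold (219.6 to 728 CPM at day 2, median 403, and 59.2 to 435 at day 4, median 170.1; adjusted p = 0.000666). Atf3, a stress-induced partner of AP-1, fell 2.78-fold (5.62 to 31.4 CPM at day 2, median 9.56, and 2.17 to 10.3 at day 4, median 3.90; adjusted p = 0.000282). The member that rose was Jund, an AP-1 subunit that is also present in resting cells (26.8 to 59.2 CPM at day 2, median 36.3, and 40.8 to 67.1 at day 4, median 48.5; 1.33-fold, adjusted p = 0.0355). Without experiment 4 the list had 12 members lower and a median of log2 -0.64. Jund did not pass without experiment 2, 3, 4, 5 or 6 (adjusted p = 0.0904, 0.113, 0.0898, 0.0904 and 0.0619).

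**Figure D2:**
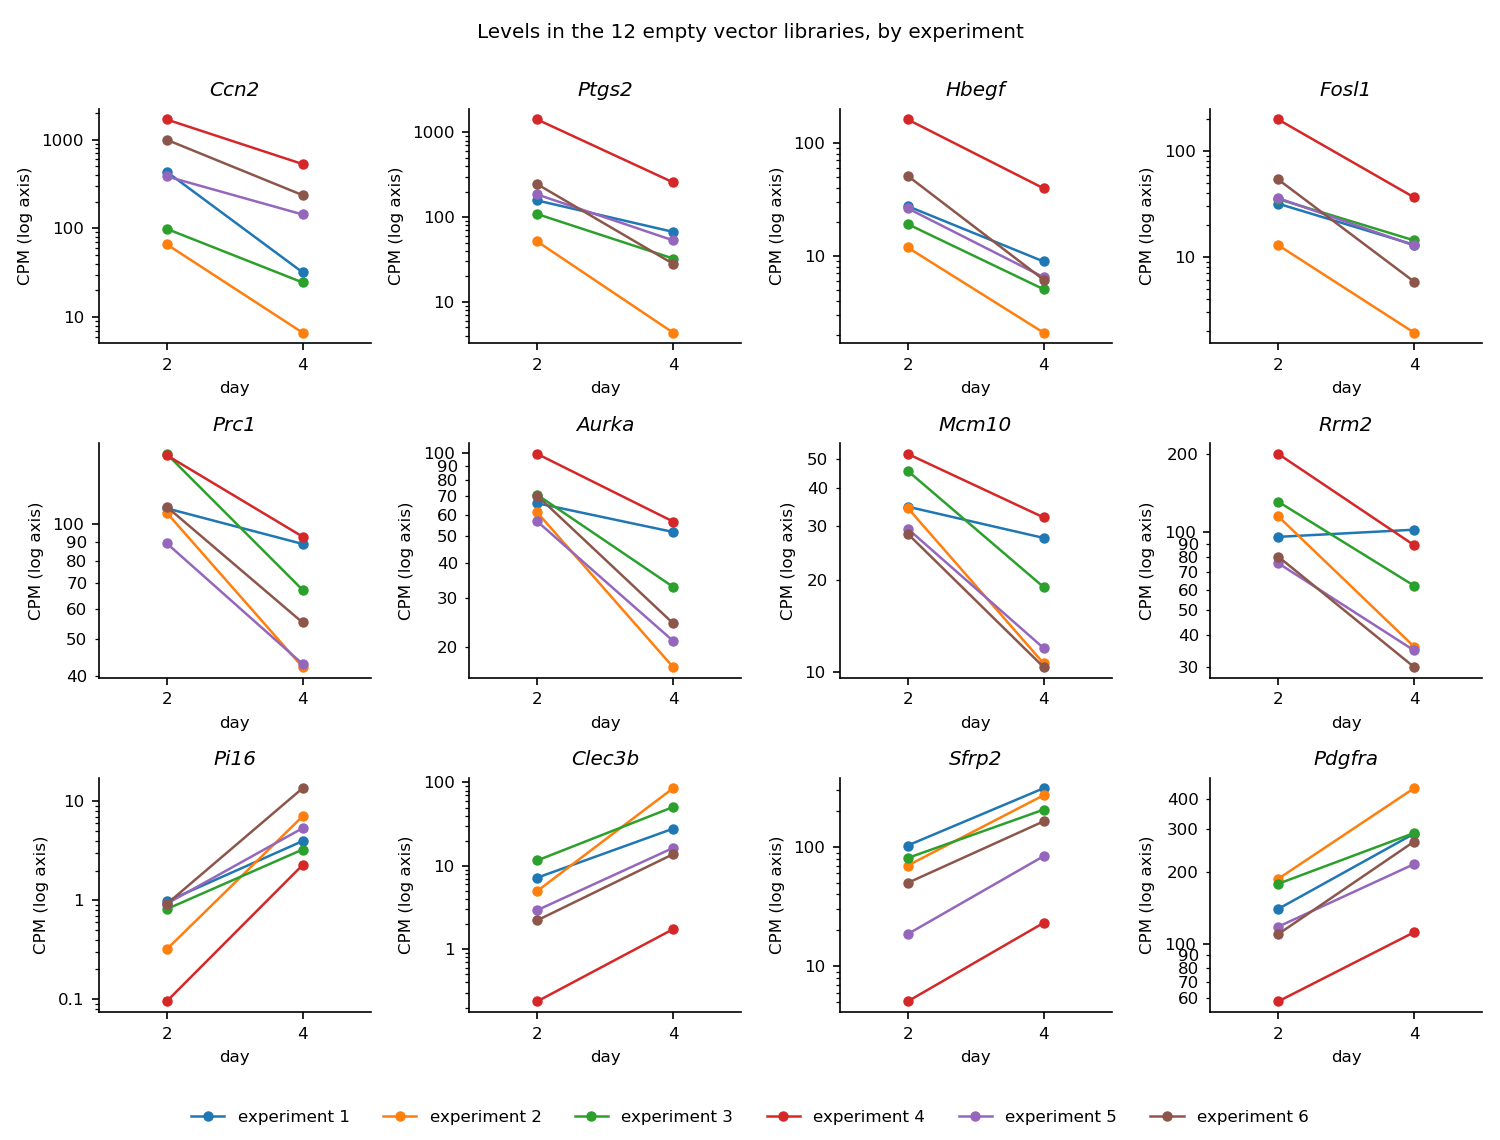
Each panel is 1 gene and each line 1 experiment, joining its EV library of day 2 to that of day 4 (x, day; y, CPM on a log axis). The first 2 rows are genes that fell and the third genes that rose. Within a panel all lines slope the same way, except experiment 1 for Rrm2, while the experiments differ in level, as for Ccn2, which ran from 66.2 to 1685 CPM at day 2 and from 6.69 to 530.3 at day 4.

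Genes of mitosis were lower at day 4 without exception: all 25 listed genes passed as lower, with log2 changes from -1.17 to -0.68 and a median of -0.93. Over all genes tested 12% passed as lower. They encode the machinery of chromosome condensation, the spindle and its checkpoint. The summed level of the list was 2112 to 3426 CPM at day 2 and 957 to 2594 at day 4. Prc1, which bundles the microtubules of the central spindle, was at 109.9, 107, 152, 151, 89.1 and 111 CPM in experiments 1 to 6 at day 2 and, in the same order, 88.7, 42.3, 67.3, 92.7, 43.1 and 55.3 CPM at day 4. It was 1.90-fold lower (log2 -0.93 ± 0.12 SE, adjusted p = 0.00092). Aurka, the spindle-pole kinase Aurora A, was at 65.9, 61.1, 70.7, 99.3, 56.7 and 70.2 CPM in experiments 1 to 6 at day 2 and, in the same order, 51.9, 16.9, 32.9, 56.6, 21 and 24.3 CPM at day 4. It was the single member whose groups did not overlap, since its highest day 4 value, in experiment 4, was just under its lowest day 2 value, in experiment 5, and it fell 2.26-fold (log2 -1.17 ± 0.17 SE, adjusted p = 0.00143). Tpx2, the activator of Aurora A on the spindle, fell 1.94-fold (147 to 257 CPM at day 2, median 174, and 52.7 to 149 at day 4, median 87.1; adjusted p = 0.00203) and Kif23, a kinesin of cell division, 1.87-fold (adjusted p = 0.00229). Mki67, the proliferation antigen Ki-67, was at 247, 316, 436, 229, 174 and 223 CPM in experiments 1 to 6 at day 2 and, in the same order, 271, 134, 212, 132, 116 and 124 CPM at day 4. It fell 1.66-fold (log2 -0.73 ± 0.15 SE, adjusted p = 0.00733).

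The size of this fall varied from experiment to experiment, which 1 pair each cannot test. The median log2 ratio of the mitosis genes was -1.61 in experiment 2, -1.05 in experiment 3, -1.04 in experiment 6, -0.97 in experiment 5 and -0.69 in experiment 4, but -0.05 in experiment 1, where 17 of 25 genes were lower and 8 higher. In the other 5 experiments all 25 were lower. The day 2 library of experiment 1 had the deepest total, 71091681 counts, and a day 4 library of 25164140; the part of depth in the smaller ratio was not tested. Without experiment 1, 25 of 25 members passed as lower with a median of log2 -1.08, and without experiment 4 the values were 25 and -0.95. In bulk RNA fewer cells of a kind and less of an RNA per cell cannot be told apart, for these genes and for all that follow.

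DNA replication genes fell too. Of 29 tested, 27 passed as lower (93.1%) and 0 as higher, against 12% and 12.9% of all genes (median log2 -0.66). The exceptions were the clamp loader subunits Rfc2 and Rfc3 (adjusted p = 0.199 and 0.0616). Mcm10, which helps to open replication origins, was at 34.8, 34.5, 45.6, 51.8, 29.5 and 28.4 CPM in experiments 1 to 6 at day 2 and, in the same order, 27.5, 10.7, 19, 32.1, 12 and 10.4 CPM at day 4. The fall was 2.16-fold (log2 -1.11 ± 0.16 SE, adjusted p = 0.0015). Cdc45, a part of the replicative helicase, fell 1.80-fold (22.4 to 38.8 CPM at day 2, median 26.6, and 9.20 to 28.1 at day 4, median 16.4; adjusted p = 0.00304). Rrm2, the regulated subunit of the enzyme that makes deoxynucleotides, fell 2.09-fold (75.9 to 201 CPM at day 2, median 106, and 30.1 to 102 at day 4, median 49.1; adjusted p = 0.00341), with experiment 1 at 95.9 and 102 CPM as the exception. On the scale of log2 ratios, in experiment 1 the median of the list was -0.09, and in experiments 2 to 6 it was -1.18, -0.88, -0.32, -0.66 and -1.01. Without experiment 6, 17 members passed as lower.

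Promoters of these 2 lists are shown because their members moved together and such genes are known for E2F sites, CCAAT boxes and the cell cycle homology region (CHR). The sequences are RefSeq windows on GRCm38.p6 of the 250 bases before the transcription start, 5′ to 3′ on the gene's strand, and those shown have the smallest p among members whose window holds the motifs. In the mitosis windows the capitals mark CCAAT (or ATTGG, its reverse complement) and the CHR letters TTTGAA or TTCGAA (or TTCAAA on the other strand), and in the replication windows the E2F letters TTTCCCGC, TTTGGCGC or TTTCGCGC on either strand. Ube2c codes for a ubiquitin-conjugating enzyme of mitotic exit (chr2:164769679-164769928, plus strand), Bub1b for a checkpoint kinase (chr2:118597961-118598210, plus strand), Cdc6 for the loader of the replicative helicase (chr11:98907901-98908150, plus strand) and Mcm6 for a helicase subunit (chr1:128359706-128359955, minus strand).
Ube2c: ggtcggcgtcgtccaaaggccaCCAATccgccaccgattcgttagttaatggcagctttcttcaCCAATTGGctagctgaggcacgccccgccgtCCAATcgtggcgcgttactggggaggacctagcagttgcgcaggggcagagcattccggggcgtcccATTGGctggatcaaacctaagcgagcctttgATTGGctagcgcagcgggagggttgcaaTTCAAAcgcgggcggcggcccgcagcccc
Bub1b: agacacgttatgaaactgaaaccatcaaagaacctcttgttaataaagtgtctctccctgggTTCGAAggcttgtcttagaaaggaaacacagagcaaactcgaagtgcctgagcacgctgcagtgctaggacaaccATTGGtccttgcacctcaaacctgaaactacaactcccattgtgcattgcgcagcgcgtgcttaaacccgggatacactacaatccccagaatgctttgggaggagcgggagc
Cdc6: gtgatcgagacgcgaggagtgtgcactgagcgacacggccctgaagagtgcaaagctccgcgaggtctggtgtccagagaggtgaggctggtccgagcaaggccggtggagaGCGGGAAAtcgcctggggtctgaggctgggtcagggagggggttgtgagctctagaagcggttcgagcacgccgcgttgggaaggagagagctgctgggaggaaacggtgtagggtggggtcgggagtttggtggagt
Mcm6: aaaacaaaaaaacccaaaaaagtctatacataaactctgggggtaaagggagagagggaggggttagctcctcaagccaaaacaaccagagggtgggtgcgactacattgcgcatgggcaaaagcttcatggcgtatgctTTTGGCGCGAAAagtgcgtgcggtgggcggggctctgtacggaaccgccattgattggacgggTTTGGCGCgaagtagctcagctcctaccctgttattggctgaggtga
CCAAT was found in 17 of the 20 mitosis promoters matched by symbol (85.0%) and in 34.5% of 27025 promoters of the same length, and CHR letters in 8 of 20 (40.0%) against 17.4%. E2F letters were found in 6 of 23 replication promoters (26.1%) against 1.59% of all promoters, and CCAAT in 14 of 23 (60.9%). Of the 16 matched promoters of the immediate early list, none held the AP-1 letters TGAGTCA or TGACTCA in this window (4.43% of all promoters) and 2 (12.5%) held the TEAD letters GGAATG (12.6% of all). A match of letters is a description and not evidence of binding.

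Among the largest rises were secreted proteins of fibroblasts and progenitors. Pi16 (ENSMUSG00000024011, chromosome 17, 29317680 to 29330593, plus strand), a peptidase inhibitor, was at 0.972, 0.318, 0.813, 0.0947, 0.922 and 0.915 CPM in experiments 1 to 6 at day 2 and, in the same order, 3.97, 7.06, 3.26, 2.27, 5.36 and 13.6 CPM at day 4. Every day 4 library lay above every day 2 library, and the fitted rise was 8.24-fold (95% interval 4.82 to 14.1; log2 3.04 ± 0.35 SE, adjusted p = 0.000506). Clec3b (ENSMUSG00000025784, chromosome 9, 123150946 to 123157432, plus strand), the plasminogen-binding protein tetranectin, was at 7.21, 4.98, 11.6, 0.237, 2.94 and 2.22 CPM in experiments 1 to 6 at day 2 and, in the same order, 27.9, 85.2, 50.7, 1.74, 16.4 and 13.8 CPM at day 4. Experiment 4 was far below the other experiments at both days and still rose with them, 6.24-fold in the fit (log2 2.64 ± 0.26 SE, adjusted p = 0.000239). Hp, haptoglobin, which binds free haemoglobin in plasma and is made by liver and fat, rose 5.97-fold (0.284 to 1.86 CPM at day 2, median 1.27, and 1.63 to 17.8 at day 4, median 6.46; adjusted p = 0.000199). Stc1, the secreted glycoprotein stanniocalcin, rose 5.04-fold (0.307 to 3.61 CPM at day 2, median 1.89, and 3.20 to 26.6 at day 4, median 7.20; adjusted p = 0.000199). Myo7a, an unconventional myosin, was at 0.568 to 29 CPM at day 2, median 9.56, and 4.74 to 91.3 at day 4, median 49.2, and rose 5.01-fold (adjusted p = 0.000205).

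Several of the 12 largest rises started from very low levels, where a fold is uncertain. Cyp2f2, a cytochrome P450, was at 0 to 0.583 CPM at day 2, median 0.178, and 0.316 to 7.53 at day 4, median 0.959, and rose 6.56-fold (95% interval 3.83 to 11.2; adjusted p = 0.000844). Agtr2, the type 2 receptor of angiotensin II, reached 8.71 CPM in experiment 1 at day 4 while it stayed under 0.3 CPM in experiments 4, 5 and 6 at both days (5.68-fold, adjusted p = 0.00446). Ptchd1, a Patched-domain membrane protein, and Olfml1, a secreted olfactomedin-domain protein, rose 5.25-fold and 4.74-fold (adjusted p = 0.002 and 0.00125). Lypd1, a small glycolipid-anchored protein, rose 4.74-fold (0.142 to 5.46 CPM at day 2, median 1.95, and 2.06 to 31.6 at day 4, median 8.81; adjusted p = 0.000199). The uncharacterised gene 1520401A03Rik rose 7.69-fold (adjusted p = 0.0012); its log2 fold change was 3.59 without experiment 1 against 2.94. Experiment 4 held the lowest level at both days in 10 of the 12 largest rises, the exceptions being Stc1 and Ppargc1a.

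Several markers of fat precursors rose. Of 16 preadipocyte and progenitor genes tested, 6 passed as higher and 1 as lower, against 12.9% and 12% of all genes, with a median of log2 0.04. Zfp423 (ENSMUSG00000045333, chromosome 8, 87661810 to 87959595, minus strand), a zinc finger factor that commits precursors to the fat lineage, was at 12.5, 20.3, 13.9, 4.40, 8.91 and 15.7 CPM in experiments 1 to 6 at day 2 and, in the same order, 26, 49.1, 34.2, 12.9, 25.3 and 35 CPM at day 4. The rise was 2.45-fold (log2 1.30 ± 0.09 SE, adjusted p = 0.000157). Pdgfra (ENSMUSG00000029231, chromosome 5, 75152292 to 75198215, plus strand), the receptor that marks fibroblastic precursors, was at 139.9, 186, 178, 57.9, 118 and 110.0 CPM in experiments 1 to 6 at day 2 and, in the same order, 287, 443, 289, 112, 215 and 266 CPM at day 4. It rose 2.02-fold (log2 1.01 ± 0.09 SE, adjusted p = 0.000199). Both rose in 6 of 6 experiments, and experiment 4 was lowest for both at both days, with its day 4 value below the day 2 values of several others. Ebf1, a factor of the early fat lineage, rose 1.74-fold (125 to 327 CPM at day 2, median 228, and 136 to 715 at day 4, median 402; adjusted p = 0.00213). Nes, the intermediate filament nestin of immature cells, fell 2.53-fold (3.98 to 87 CPM at day 2, median 23.5, and 0.370 to 36.3 at day 4, median 12.7; adjusted p = 0.00578) and was named after its values were seen.

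Among 32 tested genes of Wnt and TGF-beta signalling, 12 passed as higher and 5 as lower (median log2 0.15). These are 37.5% and 15.6%, against 12.9% and 12% of all genes. The largest rise of the list was in Dkk2, a secreted ligand of the LRP co-receptors of Wnt, named after its values were seen (log2 2.11 ± 0.37 SE, adjusted p = 0.00346). The smallest p belonged to Sfrp2. This secreted Wnt binder (ENSMUSG00000027996, chromosome 3, 83766321 to 83774316, plus strand) was at 103, 69.9, 80.9, 5.07, 18.6 and 50.0 CPM in experiments 1 to 6 at day 2 and, in the same order, 311, 272, 206, 23.1, 83.8 and 164 CPM at day 4. It was 3.52-fold higher (log2 1.81 ± 0.12 SE, adjusted p = 0.000131). Sfrp1, its relative, rose 2.55-fold (18.8 to 102 CPM at day 2, median 41.6, and 60.1 to 282 at day 4, median 105; adjusted p = 0.000157), and Fzd4, a Wnt receptor, 1.91-fold (21.8 to 89.4 CPM at day 2, median 60.4, and 52 to 191 at day 4, median 101; adjusted p = 0.000253). Among those that fell were, named after their values were seen, the SMAD regulators Skil and Smad7, the activin subunit Inhba and Tgfb1. In the list of insulin and glucose response 6 of 15 passed as higher (40.0%) and 1 as lower (6.67%), with a median of log2 0.12. Igf1 (ENSMUSG00000020053, chromosome 10, 87858265 to 87937042, plus strand), insulin-like growth factor 1, was at 128, 181, 171, 13.6, 74.2 and 104 CPM in experiments 1 to 6 at day 2 and, in the same order, 402, 306, 364, 60.2, 208 and 206 CPM at day 4. The rise was 2.53-fold (log2 1.34 ± 0.16 SE, adjusted p = 0.000624). Igfbp4, which binds it in the medium, rose 3.36-fold (13.2 to 35.1 CPM at day 2, median 16.6, and 34.8 to 132 at day 4, median 72.7; adjusted p = 0.000166). Pik3r1, the regulatory subunit of PI3-kinase, rose 1.42-fold (adjusted p = 0.00116), and Trib1, a pseudokinase that lowers C/EBP-alpha protein, was the member that fell (7.48 to 36.5 CPM at day 2, median 19.9, and 5.18 to 19.6 at day 4, median 8.27; 1.98-fold, adjusted p = 0.000832).

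The matrix genes changed in both directions. Of 21 collagen chains, 7 passed as higher (33.3%) and 2 as lower (9.52%), with a median of log2 0.19. Of 36 other matrix proteins and remodelling enzymes, 13 were higher (36.1%) and 6 lower (16.7%), with a median of log2 0.23. Over all genes 12.9% were higher and 12% lower. Col15a1, a chain of the basement membrane zone, rose most among the collagens (7.86 to 19.8 CPM at day 2, median 14.7, and 9.43 to 105 at day 4, median 54.5; 3.41-fold, adjusted p = 0.0012). Col6a1 and Col6a2, chains of the microfibrils around fat cells, rose 1.58-fold and 1.63-fold (adjusted p = 0.00277 and 0.00137), and Col3a1, a fibrillar chain, 1.90-fold (1138 to 4443 CPM at day 2, median 2977, and 3225 to 7748 at day 4, median 4761; adjusted p = 0.00375). Col1a1, the main chain of type I collagen, was at 1611 to 4567 CPM at day 2, median 3291, and 1614 to 4386 at day 4, median 3037, and did not pass (log2 -0.08 ± 0.11 SE, adjusted p = 0.649; 95% interval of the fold 0.796 to 1.12). The chains that fell were Col7a1 and Col12a1, named after their values were seen (2.03-fold and 1.38-fold, adjusted p = 0.0078 and 0.03). Col12a1 did not pass without experiment 1, 2, 3, 5 or 6 (adjusted p = 0.0649, 0.0806, 0.0596, 0.0559 and 0.0923).

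Mmp2, the gelatinase made by stromal cells, was at 402, 304, 304, 221, 421 and 456 CPM in experiments 1 to 6 at day 2 and, in the same order, 575, 733, 539, 458, 705 and 821 CPM at day 4. Its groups did not overlap, and it rose 1.84-fold (log2 0.88 ± 0.11 SE, adjusted p = 0.000668). Dcn, the small proteoglycan decorin, rose 2.92-fold (0.758 to 10.5 CPM at day 2, median 4.58, and 3.74 to 28.2 at day 4, median 13.5; adjusted p = 0.000669) and Nid2, a basement membrane linker, 1.59-fold (adjusted p = 0.000842). In the other direction, Has2, the synthase of hyaluronan, was at 67.6, 24, 25.9, 344, 87.1 and 118 CPM in experiments 1 to 6 at day 2 and, in the same order, 33, 7.73, 12, 110.3, 25.9 and 18.2 CPM at day 4. It fell 3.14-fold (log2 -1.65 ± 0.19 SE, adjusted p = 0.000471). Thbs1, thrombospondin 1, and Timp1, an inhibitor of matrix proteases, fell 2.05-fold and 1.81-fold (adjusted p = 0.00478 and 0.00655) and were named after their values were seen. Experiment 4 was the highest library for Has2 at both days and the lowest for Mmp2 and Nid2 at both days.

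**Figure D3:**
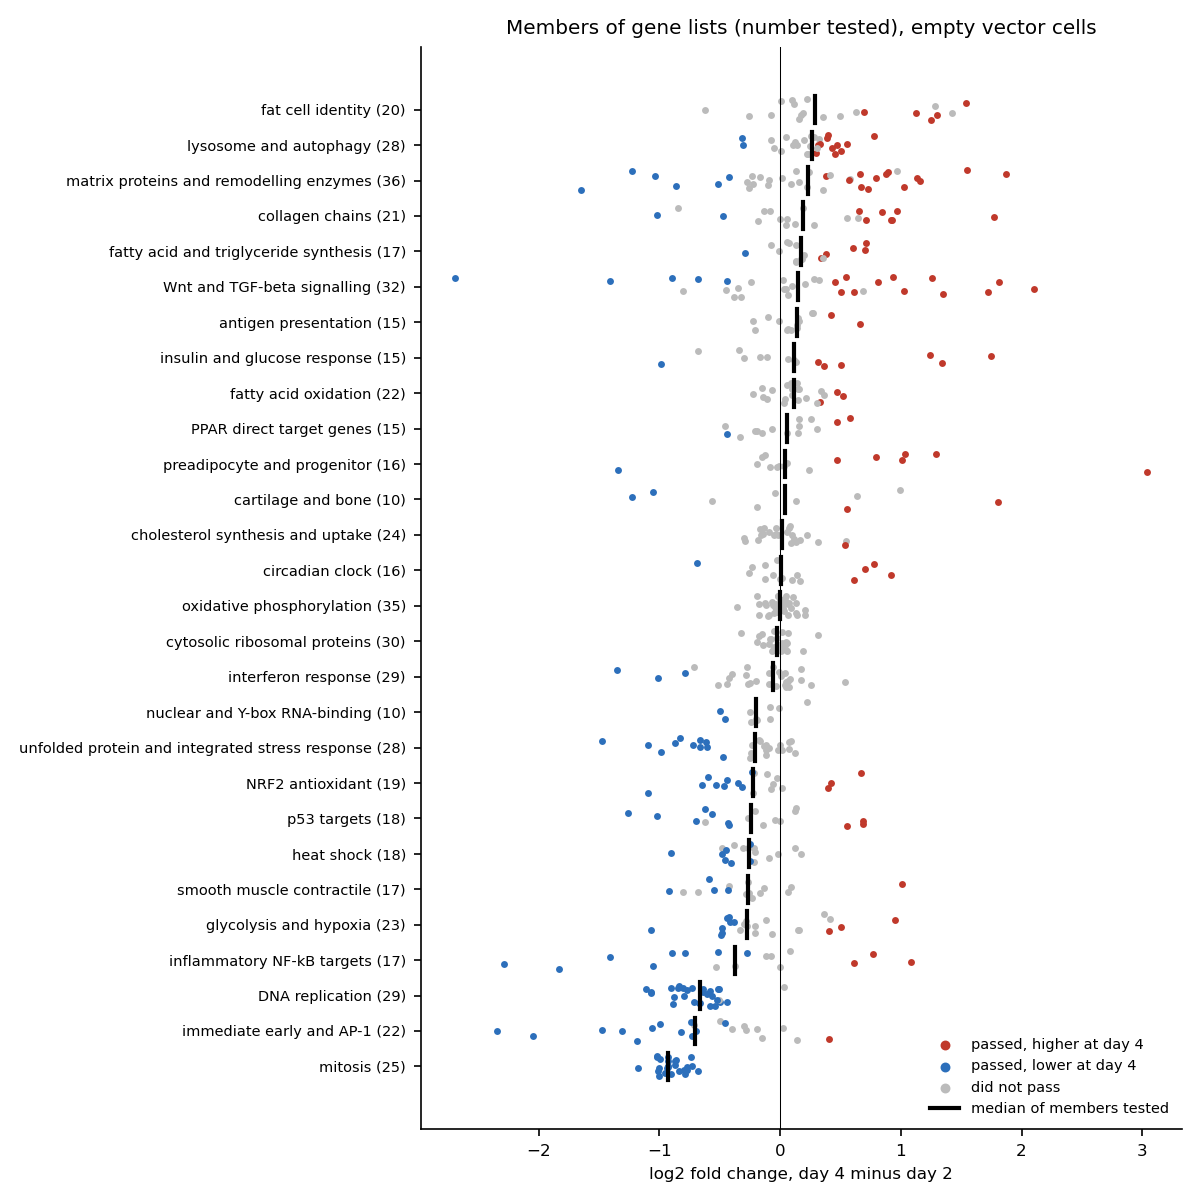
Each point is a tested member of a gene list (rows, with the number tested; lists of 10 or more), placed by its log2 fold change of day 4 against day 2 in EV cells. Red and blue points passed, grey points did not, and the bar is the median; all 25 mitosis genes lie left of 0, while the 35 genes of oxidative phosphorylation cluster around it.

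Most fat cell genes did not pass, and for several of them the experiments differed in direction. Of 20 fat cell identity genes tested of 26 listed, 5 passed as higher and 0 as lower (25% against 12.9% of all genes; median log2 0.29); without experiment 2 or 3 the number higher was 3. Pparg (ENSMUSG00000000440, chromosome 6, 115360951 to 115490399, plus strand) itself was at 47.4, 69, 64.8, 71.7, 51.2 and 43 CPM in experiments 1 to 6 at day 2 and, in the same order, 71.6, 66.3, 79.3, 44.5, 47.4 and 43.3 CPM at day 4. It did not pass (log2 0.01 ± 0.14 SE, adjusted p = 0.974; 95% interval of the fold 0.812 to 1.25). Cebpa (ENSMUSG00000034957, chromosome 7, 35119293 to 35121928, plus strand), the factor that sustains the fat cell programme with PPARG, was at 5.12, 6.68, 2.80, 0.805, 2.68 and 6.41 CPM in experiments 1 to 6 at day 2 and, in the same order, 8.79, 12.1, 6.41, 5.90, 8.79 and 12.4 CPM at day 4. The rise was 2.46-fold (log2 1.30 ± 0.24 SE, adjusted p = 0.00396). Lpl, the lipase that releases fatty acids from lipoproteins, was at 10.5, 43.6, 28.6, 11.6, 5.49 and 10.2 CPM in experiments 1 to 6 at day 2 and, in the same order, 42.2, 177, 73, 12.8, 11.7 and 15.9 CPM at day 4. It was 2.38-fold higher (log2 1.25 ± 0.23 SE, adjusted p = 0.00418). Experiments 2 and 3 held its highest levels at day 4, and in experiment 4 it hardly moved. Cebpd, an early factor of the C/EBP family, rose 1.62-fold (20.8 to 60.4 CPM at day 2, median 37.2, and 30.4 to 83.1 at day 4, median 64.9; adjusted p = 0.00715). In the fit of all 51 libraries with the experiment block, Lpl and Cebpd no longer passed (adjusted p = 0.0842 and 0.0984).

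Adipoq, the fat cell hormone adiponectin, was at 2.97, 7.58, 1.36, 0.947, 2.90 and 3.92 CPM in experiments 1 to 6 at day 2 and, in the same order, 9.83, 70.4, 16.4, 0.843, 2.73 and 4.62 CPM at day 4. The value of experiment 2 at day 4 stood far above the rest, experiments 4 and 5 were slightly lower at day 4, and the rise of 2.91-fold (log2 1.54 ± 0.49 SE, adjusted p = 0.0429) did not pass without experiment 1, 2 or 3 (adjusted p = 0.0902, 0.144 and 0.123) or in DESeq2 (0.0749). Gpd1, which makes glycerol phosphate for triglycerides, rose 2.19-fold (0.723 to 5.62 CPM at day 2, median 3.08, and 1.53 to 25.4 at day 4, median 4.51; adjusted p = 0.0484) and did not pass without experiment 2, 3, 5 or 6 (adjusted p = 0.0813, 0.118, 0.0712 and 0.0705). Plin1, which coats lipid droplets, was at 2 CPM or less in 11 libraries and at 18.1 in experiment 2 at day 4 (log2 1.28 ± 0.65 SE, adjusted p = 0.178). Cidec, which fuses droplets, showed the same single high value, 15.3 CPM against at most 1.48 elsewhere (log2 1.42 ± 0.59 SE, adjusted p = 0.107). Cebpb did not pass (log2 0.22 ± 0.21 SE, adjusted p = 0.491).

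Of 15 tested direct targets of the PPAR receptors, 2 passed as higher (13.3%) and 1 as lower (6.67%), against 12.9% and 12% of all genes (median log2 0.06). Well-known members moved in opposite directions in different experiments. Fabp4, the fatty acid carrier of fat cells, was at 41, 87.4, 53, 198, 56.2 and 38.5 CPM in experiments 1 to 6 at day 2 and, in the same order, 52.3, 154, 119, 27.4, 15.8 and 12.3 CPM at day 4. It was higher at day 4 in experiments 1, 2 and 3 and lower in 4, 5 and 6, and did not pass (log2 -0.62 ± 0.52 SE, adjusted p = 0.421; 95% interval of the fold 0.294 to 1.44). Angptl4, an inhibitor of lipoprotein lipase, was at 189, 337, 313, 159, 116 and 96.2 CPM in experiments 1 to 6 at day 2 and, in the same order, 294, 504, 475, 26.2, 45.8 and 50.7 CPM at day 4. The split was the same (log2 -0.46 ± 0.41 SE, adjusted p = 0.453). Cd36, a fatty acid transporter, was at 2.42, 12, 2.71, 6.11, 1.10 and 2.48 CPM in experiments 1 to 6 at day 2 and, in the same order, 4.57, 32.2, 15.7, 0.738, 0.517 and 0.385 CPM at day 4. It split in the same way (log2 0.11 ± 0.67 SE, adjusted p = 0.923). Plin2, the coat of lipid droplets in most cells, was at 197 to 602 CPM at day 2, median 239, and 139.8 to 293 at day 4, median 247, and higher at day 4 in experiments 1 and 3 alone (log2 -0.33 ± 0.18 SE, adjusted p = 0.211; 0.0439 without experiment 1). With no filter on low counts, which alters the error model of the fit, Fabp4, Angptl4, Plin1, Cidec and Plin2 passed (adjusted p = 1.24e-06, 0.000271, 4.11e-05, 1.8e-05 and 0.0107). Whether the experiments differ in how they answered the drug was not tested, since each has 1 library a day.

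The members that passed were Acadm, a dehydrogenase of fatty acid oxidation (44.7 to 111 CPM at day 2, median 62, and 67.9 to 129.6 at day 4, median 89.9; 1.39-fold, adjusted p = 0.0179), Mgll, the monoglyceride lipase (1.49-fold, adjusted p = 0.0324), and, as lower, Pdk4, the kinase that shuts pyruvate dehydrogenase (68.2 to 154 CPM at day 2, median 107, and 41 to 118 at day 4, median 88.3; 1.35-fold, adjusted p = 0.0435). None of the 3 was stable: Acadm did not pass without experiment 3 or 6 (adjusted p = 0.0611 and 0.0582), Mgll without 2, 3 or 4 (0.0939, 0.102 and 0.0748), and Pdk4 without any of 2 to 6 (0.108, 0.115, 0.0757, 0.0906 and 0.121).

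**Figure D4:**
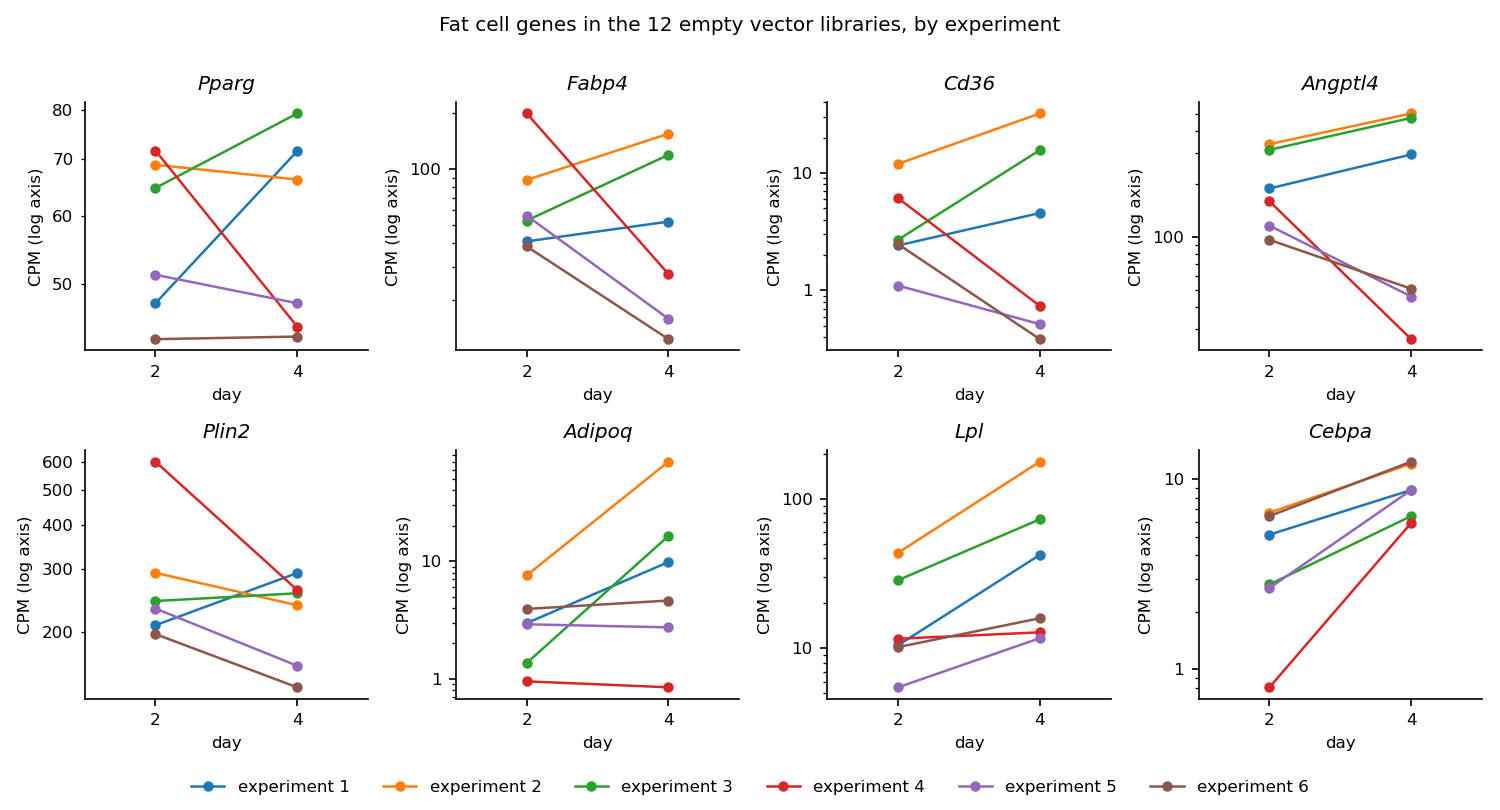
Each panel is 1 fat cell gene and each line 1 experiment, joining its EV library of day 2 to that of day 4 (x, day; y, CPM on a log axis). Fabp4, Cd36 and Angptl4 go up in experiments 1, 2 and 3 and down in experiments 4, 5 and 6, Pparg stays between 43.0 and 79.3 CPM, and Cebpa goes up in all 6.

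Of 17 tested genes of fatty acid and triglyceride synthesis, 5 passed as higher and 1 as lower (median log2 0.17). These are 29.4% and 5.88%, against 12.9% and 12% of all genes. Scd2, a desaturase of precursor cells, was at 857, 996, 713, 431, 859 and 650.0 CPM in experiments 1 to 6 at day 2 and, in the same order, 1799, 1367, 1254, 1004, 985 and 932 CPM at day 4. The rise was 1.64-fold (log2 0.71 ± 0.14 SE, adjusted p = 0.00565). Elovl6 and Elovl5, fatty acid elongases, rose 1.63-fold and 1.27-fold (adjusted p = 0.00696 and 0.0102), and Lpin1, a phosphatidate phosphatase, 1.52-fold (0.00286; 0.105 in the fit of all 51 libraries). Scd1 (log2 0.38, adjusted p = 0.0484) and, as lower, Lpin2 (log2 -0.29, 0.0479) sat at the threshold and failed without, among others, experiment 3 (adjusted p = 0.101 and 0.119). Fasn, the fatty acid synthase, did not pass (256 to 473 CPM at day 2 and 225 to 486 at day 4; adjusted p = 0.981). Of 24 genes of cholesterol synthesis and uptake, Insig1, which holds back the sterol response, passed as higher (1.45-fold, adjusted p = 0.0195; 0.0612 without experiment 3). The median ratio of that list was 0.93 in experiment 1 and -0.54 in experiment 6.

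Of 22 genes of fatty acid oxidation, 3 passed as higher (13.6%, near the 12.9% of all genes) and 0 as lower. They were Hadh and Eci2, enzymes of the mitochondrial pathway, and Acadm. Eci2 did not overlap between the days (48 to 62.2 CPM at day 2, median 58.9, and 63 to 80.4 at day 4, median 71.7; 1.26-fold, adjusted p = 0.0124), and Hadh rose 1.43-fold (adjusted p = 0.0046; 0.0653 in the fit of all 51 libraries). No gene of oxidative phosphorylation passed of 35 tested (4 at an unadjusted p under 0.05 in edgeR, and 1 gene, lower, at the adjusted threshold in DESeq2; median log2 0.00), nor any of 7 mitochondrially encoded messenger RNAs (0 at the unadjusted p, 0 in DESeq2). For the latter the experiments differed in direction: all 7 were lower at day 4 in experiments 1 and 4 (median log2 ratios -0.86 and -1.38), and 6 or 7 were higher in experiments 2, 3, 5 and 6 (1.14, 0.92, 1.17 and 0.49). Without experiment 4, 1 passed as higher (4 at the unadjusted p), and with no filter on low counts 3 of 10 did. Of 20 genes of brown and beige heat production only 4 had enough counts. Ucp1, the uncoupling protein that makes the heat, had 12 counts in all 12 libraries together and Prdm16, a factor of the brown lineage, 31. Ppargc1a (ENSMUSG00000029167, chromosome 5, 51454250 to 51567726, minus strand), a coactivator of mitochondrial genes, was at 0.453, 6.73, 7.05, 0.237, 0.132 and 0 CPM in experiments 1 to 6 at day 2 and, in the same order, 2.41, 39.9, 30.6, 0.896, 0.329 and 0.385 CPM at day 4. It was higher at day 4 in 6 of 6 experiments, 5.01-fold in the fit (log2 2.33 ± 0.22 SE, adjusted p = 0.000202), but exceeded 3 CPM in experiments 2 and 3 alone. Tbx1, a factor listed among beige markers, rose 1.44-fold (12.7 to 28.2 CPM at day 2, median 23, and 21 to 38.9 at day 4, median 30.8; adjusted p = 0.00427).

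Many genes of stress programmes fell. Over all genes tested 12% were lower and 12.9% higher, which is the background for each list of this paragraph. Of 28 genes of the unfolded protein and integrated stress responses, 11 passed as lower (39.3%) and 0 as higher (median log2 -0.20). The 11 are known as factors of the integrated stress response or as genes of amino acid and glutathione metabolism, and no chaperone of the endoplasmic reticulum was among them. Slc7a11, the cystine importer, fell 2.14-fold (12.7 to 50.7 CPM at day 2, median 19.7, and 6.60 to 17.6 at day 4, median 8.79; adjusted p = 0.000583), Chac1, which breaks down glutathione, 1.98-fold (adjusted p = 0.000832), and Shmt2, a mitochondrial serine enzyme, 1.53-fold (adjusted p = 0.0016). Of 18 heat shock genes, 7 passed as lower and 0 as higher (median log2 -0.26), among them Hspa4l, a chaperone cofactor (1.88-fold, adjusted p = 0.00294), and Dnajb1, a partner of HSP70 (1.32-fold, 0.00989). The cells carry the activation domain of HSF1, the heat shock factor, on both days. Of 19 antioxidant targets of NRF2, 9 passed as lower (47.4%) and 3 as higher (15.8%), with a median of log2 -0.22. The lists share members, so their counts are not separate. Slc7a11 is counted as lower in the NRF2 and unfolded protein lists, and Atf3 in the unfolded protein and immediate early lists. Txnrd1, thioredoxin reductase, fell 1.56-fold (253 to 609 CPM at day 2, median 313, and 173 to 302 at day 4, median 226; adjusted p = 0.00225), while Gstm1, a glutathione transferase, rose 1.59-fold without overlap of the groups (64.2 to 104 CPM at day 2, median 95.9, and 109 to 186 at day 4, median 139.8; adjusted p = 0.0016); higher too were its relatives Gstm2 and Gsta4, named after their values were seen (adjusted p = 0.0237 and 0.018). Of 18 p53 targets, 7 passed as lower and 3 as higher (median log2 -0.24), with Btg2, which slows growth, 1.62-fold lower (adjusted p = 0.00102) and Sesn1, a stress sensor of the mTOR pathway, 1.61-fold higher (adjusted p = 0.00215). Trp53inp1 and Bbc3, named after their values were seen, were the other members higher at day 4. Without experiment 6, 10 of the unfolded protein list, 4 of the heat shock list and 6 of the NRF2 list passed as lower; without experiment 5, 4 of the heat shock list did.

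Of 17 inflammatory targets of NF-kB, 8 passed as lower and 3 as higher (median log2 -0.38). These are 47.1% and 17.6%, against 12% and 12.9% of all genes. Ccl2, a chemokine that draws monocytes, was at 60.7, 36.4, 88.2, 91.8, 53.4 and 47.4 CPM in experiments 1 to 6 at day 2 and, in the same order, 37.8, 15.2, 42.2, 47.2, 27 and 18.2 CPM at day 4. It fell 2.07-fold (log2 -1.05 ± 0.10 SE, adjusted p = 0.000202). Tnfaip3, the feedback inhibitor A20, fell 2.66-fold (11.7 to 114 CPM at day 2, median 26.3, and 6.38 to 25.1 at day 4, median 11.5; adjusted p = 0.000774) and the cytokine Il6 1.86-fold (3.45 to 8.10 CPM at day 2, median 6.78, and 2.25 to 4.85 at day 4, median 3.43; adjusted p = 0.00229). The members that rose, Vcam1, C3 and Cxcl5, named after their values were seen, are an adhesion molecule, a complement protein and a chemokine; Vcam1 and C3 rose 1.53-fold and 2.12-fold (adjusted p = 0.00379 and 0.00382; 0.158 for C3 in the fit of all 51 libraries). Of 29 interferon-stimulated genes 3 passed as lower (10.3%, near the 12% of all genes) and 0 as higher (median log2 -0.06; 5 lower without experiment 5). The experiments differed in direction: 29 members were lower at day 4 in experiment 6 and 27 in experiment 2, while 26 were higher in experiment 5 (median log2 ratios -0.78, -0.53 and 0.39). The members that passed were Cxcl10, a chemokine (2.01-fold lower, adjusted p = 0.00382; 0.0888 in the fit of all 51 libraries), Oas3, a sensor of double-stranded RNA (2.55-fold, 0.00852), and its relative Oasl1 (1.73-fold, 0.0227; 0.0577, 0.0689, 0.0504 and 0.0672 without experiment 2, 3, 4 or 6). Ifit1, an abundant interferon-induced inhibitor of translation, was at 414 to 1860.2 CPM at day 2, median 748, and 275 to 2265 at day 4, median 1016, and did not pass (log2 0.06 ± 0.19 SE, adjusted p = 0.842). Of 15 genes of antigen presentation 2 passed as higher (13.3%, near the 12.9% of all genes). They were H2-T23, a non-classical class I molecule, and Tap2, a peptide transporter (1.58-fold and 1.34-fold, adjusted p = 0.00575 and 0.0184); Tap2 did not pass without experiment 2 or 3 (0.0539 and 0.0522), nor H2-T23 in the fit of all 51 libraries (0.065).

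Of 23 genes of glycolysis and hypoxia, 8 passed as lower and 3 as higher (median log2 -0.27). These are 34.8% and 13.0%, against 12% and 12.9% of all genes. Hk2, the inducible hexokinase, was at 37.1, 26.6, 33.3, 116, 41.1 and 53 CPM in experiments 1 to 6 at day 2 and, in the same order, 20.3, 15.1, 21.6, 38.8, 21.7 and 18.2 CPM at day 4. The fall was 2.10-fold (log2 -1.07 ± 0.14 SE, adjusted p = 0.000815). Slc2a1, the basal glucose transporter, fell 1.40-fold (adjusted p = 0.00841; 0.0797 in the fit of all 51 libraries), while Ndrg1, a hypoxia and differentiation gene, rose 1.94-fold (59.7 to 101 CPM at day 2, median 71.7, and 85.9 to 173 at day 4, median 156; adjusted p = 0.000998). Pdk1 and Pfkfb3, named after their values were seen, were the other members higher. Without experiment 6, 4 members passed as lower. Genes of lysosomes and autophagy rose more often than they fell. Of 28, 11 passed as higher (39.3%) and 2 as lower (7.14%), with a median of log2 0.27. The lower members were Atp6v1h and Sqstm1, named after their values were seen. Pink1, the kinase that marks damaged mitochondria for removal, was at 41.3, 38.8, 34.2, 18.6, 42.9 and 38.5 CPM in experiments 1 to 6 at day 2 and, in the same order, 55, 70.3, 51.2, 45.4, 62.1 and 76.6 CPM at day 4. The groups did not overlap (1.71-fold; log2 0.77 ± 0.11 SE, adjusted p = 0.00151). Map1lc3b, the autophagosome protein LC3B, rose 1.35-fold (adjusted p = 0.00664) and Lamp2, a lysosomal membrane protein, 1.37-fold (adjusted p = 0.0077). Without experiment 6 the list had 6 members higher. Of 16 genes of the circadian clock, 4 passed as higher (25.0%) and 1 as lower (6.25%), with a median of log2 0.01. The output factors Dbp and Tef, the repressor Per3 and the receptor Rora rose 1.89-fold, 1.62-fold, 1.53-fold and 1.72-fold (adjusted p = 0.00142, 0.00256, 0.00125 and 0.000878). Ciart, a clock repressor, was the lower member (adjusted p = 0.023; 0.0607, 0.0578, 0.0544 and 0.0894 without experiment 3, 4, 5 or 6). The labels give no hour of sampling.

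Other fates open to this line were followed by their markers. Of 17 contractile genes of smooth muscle, 4 passed as lower and 1 as higher (median log2 -0.27), against 12% and 12.9% of all genes. Those lower were Srf, Tpm2, Cnn2 and Tagln, and the one higher was Mylk, the light chain kinase. In the fit of all 51 libraries with the experiment block 0 passed as lower (adjusted p = 0.0525, 0.165 and 0.253 for Srf, Tpm2 and Cnn2). The number lower in the 12 libraries was 2 without experiment 1, 2, 3 or 6 and 7 without experiment 4. Mylk was at 4.74 to 28.3 CPM at day 2, median 15.6, and 20.8 to 50.4 at day 4, median 25.8 (2.02-fold, adjusted p = 0.00606). Srf, the serum response factor, was at 70.7 to 259 CPM at day 2, median 136, and 50.7 to 156 at day 4, median 87.1, 1.5-fold lower (adjusted p = 0.00302). Acta2, smooth muscle actin, was at 3441, 766, 886, 3865, 4917 and 5414 CPM in experiments 1 to 6 at day 2 and, in the same order, 1287, 194, 360.3, 7145, 4552 and 4987 CPM at day 4. It was lower at day 4 in 5 of 6 experiments and much higher in experiment 4, and did not pass unless that experiment was left out or no filter was used (log2 -0.68 ± 0.34 SE, adjusted p = 0.17; 0.0248 without experiment 4 and 5.53e-09 with no filter). Of 10 cartilage and bone genes, 2 passed as higher and 2 as lower (20.0% each), against 12.9% and 12% of all genes. Phex, an endopeptidase of bone-forming cells, and Sox9, the cartilage factor, rose 3.49-fold and 1.47-fold (adjusted p = 0.0034 and 0.00348). Col2a1, the cartilage collagen, and Spp1, osteopontin, fell 2.07-fold and 2.34-fold (adjusted p = 0.0228 and 0.042). Col2a1 did not pass without experiment 3 or 6 (adjusted p = 0.0791 and 0.0505), nor Spp1 without 2, 3, 5 or 6 (0.102, 0.104, 0.112 and 0.122).

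Markers of further cell types were summed by list. Of 14 macrophage markers 2 had enough counts and none passed (0 at an unadjusted p under 0.05 in edgeR, 0 in DESeq2); the list summed to 6.60 to 15 CPM at day 2 and 7.23 to 14.3 at day 4, and the defining gene Adgre1 had 1 count in all 12 libraries. Of 19 skeletal muscle genes 4 were tested and none passed (1 at an unadjusted p under 0.05, 0 in DESeq2; sum 6.06 to 44.2 CPM at day 2 and 4.47 to 52.8 at day 4), and of 13 epithelial markers 1 was tested and did not pass (sum 0.616 to 3.60 CPM at day 2 and 1.14 to 4.89 at day 4). The endothelial list summed to 34.8 to 96.5 CPM at day 2 and 49.5 to 111 at day 4, with 5 of 12 tested. Tek, a receptor of angiopoietins, passed as higher (2.32 to 29.5 CPM at day 2, median 23.2, and 23.3 to 49.6 at day 4, median 37.4; adjusted p = 0.0397) but not without experiment 2, 3, 5 or 6 (0.0953, 0.0541, 0.0882 and 0.0935), and the defining genes Pecam1 and Cdh5 had 67 and 21 counts in all 12 libraries. None of 30 cytosolic ribosomal protein genes passed (2 at an unadjusted p under 0.05 in edgeR, 1 as lower at the adjusted threshold in DESeq2). Of 10 nuclear and Y-box RNA-binding genes 2 passed as lower (20.0%, against 12% of all genes). They were Ybx3, a Y-box protein (1.37-fold, adjusted p = 0.00272), and Igf2bp1, an mRNA-binding protein (1.41-fold, 0.0152, and 0.0595 without experiment 6). Ybx1, the gene targeted in the PY arm, was at 555 to 756 CPM at day 2, median 729, and 434 to 749 at day 4, median 591 in these cells (log2 -0.25 ± 0.09 SE, adjusted p = 0.072; 0.0294 without experiment 1 and 0.0157 in DESeq2).

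**Figure D5:**
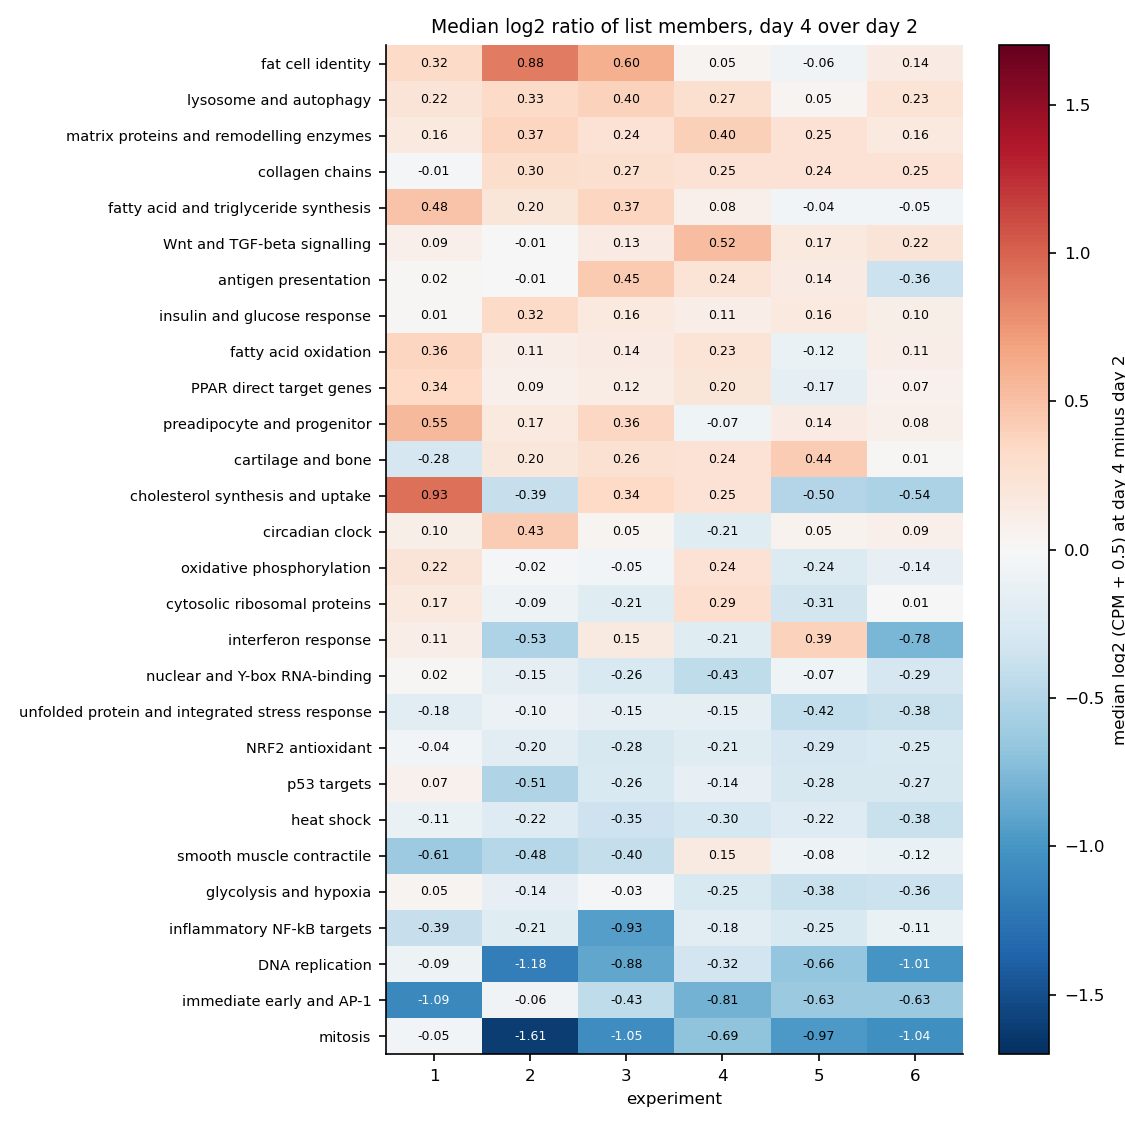
Rows are gene lists with 10 or more tested members and columns the 6 experiments; each cell is the median over members of log2(CPM + 0.5) at day 4 minus day 2 in the EV pair of that experiment. Mitosis is at -0.05 in experiment 1 and between -0.69 and -1.61 in the others, and cholesterol synthesis runs from 0.93 in experiment 1 to -0.54 in experiment 6.

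The 5 EV libraries of day 0, from experiments 1 to 5, place these changes on a longer course; the medians that follow are CPM over 17 libraries scaled together, given as a description. The genes of the largest falls were highest at day 0 for the 3 given here: the medians at day 0, day 2 and day 4 were 1309, 405 and 86.6 for Ccn2, 614, 169 and 42.5 for Ptgs2 and 117, 35.2 and 12.6 for Fosl1. Genes of division were highest at day 2, with medians of 77.3, 236 and 131 for Mki67, 34, 67.3 and 28.3 for Aurka and 46.3, 105 and 48.7 for Rrm2. Of genes that rose from day 2 to day 4, these 4 were lower still at day 0, with 80.0, 128 and 271 for Pdgfra, 14.1, 59.3 and 183 for Sfrp2, 21.9, 115 and 255 for Igf1 and 0.198, 2.90 and 7.05 for Adipoq. Fabp4 was at 4.38, 54.1 and 38.9, so its larger step came before day 2. Ifit1 was at 3065, 739 and 997, with a day 0 range of 2534 to 3456.

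The same interval was compared with that in cells given the Pparg guide, to see whether the change in EV cells differed. No gene's change differed between EV and P cells at the adjusted threshold in edgeR (0 of 16528 tested, 0%; 452 at an unadjusted p under 0.05; no other tool was run), and 6 differed between EV and PY (0.0363%; 722 unadjusted). The median SE of these differences was log2 0.21 and 0.22. The fit did not match an experiment's change in EV to its change in P or PY. Differences between experiments in the day change therefore stayed in the error. The SE bounds what this fit and this number of libraries can show. All 6 rose in P and in PY. In EV, Lrig1 and Gm31305 fell in the same fit (adjusted p = 0.00388 and 0.0209) and the others did not pass. Fasn (ENSMUSG00000025153, chromosome 11, 120805846 to 120824547) went from a mean of 328 to 324 CPM in EV, from 544 to 1393 in P and from 540.4 to 1549 in PY, a difference of log2 changes, EV minus PY, of -1.69 ± 0.29 (SE, adjusted p = 0.0327). Lrig1, a negative regulator of growth factor receptors, was at means of 30.4 and 17.8 CPM in EV against 36.6 and 64.9 in PY (-1.58 ± 0.23, adjusted p = 0.0053). Apcdd1, an inhibitor of Wnt signalling, was at 3.70 and 3.34 against 5.51 and 16.9 (-1.90 ± 0.27, adjusted p = 0.0053). The others were Itih4, Tmem120b and the unnamed gene Gm31305 (-3.44 ± 0.49, -1.14 ± 0.19 and -4.51 ± 0.78). Itih4 was at means of 0.382 and 0.212 CPM in EV against 1.06 and 5.48 in PY. Gm31305 was at 0.210 and 0.0625 CPM in EV against 0.355 and 1.63 in PY. At such low levels the size of these differences, and the fall of Gm31305 in EV, are uncertain.

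None of these 6 held under every choice. With the experiment alone as the block, or with no block, 0 genes passed, and the count ran from 0 without experiment 5 to 10 without experiment 1. The adjusted p of Fasn was 0.441 without experiment 5, and that of Apcdd1, Lrig1 and Itih4 0.197, 0.213 and 0.197. Experiment 4 has no PY library at day 2, so it adds nothing to the change in PY. In the fit of 35 libraries the mitosis list had medians of log2 -0.96 in EV, -1.16 in P and -1.18 in PY, and the immediate early list -0.74, -0.70 and -0.53. The medians of fat cell identity were 0.26, 0.65 and 0.97 and those of oxidative phosphorylation -0.03, 0.26 and 0.36; these differences between arms were not tested as lists.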

How the data were processed

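Total RNA from 51 libraries was sequenced with a stranded kit after ribosomal RNA depletion, per the labels' protocols. The deposited values are raw read counts for 53801 genes; the submitters' processing notes name featureCounts 1.5.2, the aligner STAR 2.5.3a, edgeR 3.22.0 and, as the genome build, GRCm38 (mm10). The strand setting, the treatment of reads with several matches and the annotation release are not given in the sources used here, so genes that overlap or have near-identical copies are uncertain. Gene names and positions came from the reference annotation of GRCm38.

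The 12 EV libraries were fitted with edgeR 4.0.16 (quasi-likelihood test, two-sided): filterByExpr for low counts, TMM scaling, experiment as a block, and Benjamini-Hochberg adjustment over 14644 genes with a threshold of 0.05. Totals of 11261100 to 71091681 counts set the counting error. Library measures were tested by exact sign changes over 6 pairs. The change in EV was compared with that in P and in PY in 1 fit of 35 libraries. Each experiment within each transfection was a block, and the changes were not paired by experiment between arms. Ratios by experiment used log2(CPM + 0.5). The labels number the experiments, and the pairing was checked by correlating deviations from the day means. Within the 6 pairs r was 0.217 to 0.776 (median 0.637), against a median of -0.159 in 30 other pairings. Some other pairings were higher than a true pair. Day 4 of experiment 5 reached 0.4475 with day 2 of experiment 6 and 0.4398 with its partner. Day 2 of experiment 1 reached 0.3482 with day 4 of experiment 6 and 0.2168 with its partner. Experiments 2 and 3 correlated with each other at 0.4452 and 0.4845. Centring on day means favours negative values in other pairings, so the medians are no test of the pairing. The biological coefficient of variation was 0.164 with the block and 0.290 without. The script was tested on simulated data.

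Genes were named by rule: the 12 largest rises and 12 largest falls among protein-coding genes that passed with a mean of at least 1 CPM and the same direction in 6 of 6 experiments, the 4 members of smallest p that passed in each gene list, and in any case Pparg, Fabp4, Adipoq, Cebpa, Cebpb, Cebpd, Plin1, Cidec, Lpl, Cd36, Angptl4, Pdk4, Plin2, Ucp1, Prdm16, Ppargc1a, Ybx1, Mki67, Col1a1, Acta2 and Ifit1. Others are said to be named after their values were seen, and some that the rule names are not reported here. The lists and the comparison were chosen with earlier results of these data known, so they are no independent support. Alternatives were RLE scaling, DESeq2 1.42.0, no filter, at least 1 CPM in at least 6 libraries (5 for the comparison of arms), no block, all 51 libraries, and each experiment left out in turn.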

Additional observations from a re-analysis of the deposited data

Results flagged for a closer look

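Among the genes named above and the library measures, 55 values stood apart from the other 5 libraries of their day, with a gap to the nearest above 0.625 of the group's whole range. 260 groups of 6 were checked, with gene levels as plain CPM and not on the log2 scale used above. Chance flags about 1 in 20 only for independent groups of normally distributed values. That was not tested for CPM, and flags of the same library are not independent. Most of the flagged values belong to experiment 4; no cause of this was tested.

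In experiment 4 at day 2 the library was far the lowest of its day, in CPM, at 11.3 for Lpin1, 85.7 for Elovl5, 45.4 for Tef and 18.6 for Pink1. In experiment 4 at day 2 the library was far the highest of its day, in CPM, at 29.2 for Siglecg, 52.7 for Tmem171, 22.3 for Tnnt2, 239 for Ankrd1, 1419.5 for Ptgs2, 160.2 for Hbegf, 363 for Fgd3, 199 for Fosl1, 139 for Sema7a, 116 for Hk2, 99.3 for Aurka, 114 for Tnfaip3, 64.7 for Chac1, 286 for Shmt2, 102 for Hspa4l, 147 for Ier3, 344 for Has2, 121 for Igf2bp1, 198 for Fabp4, 602 for Plin2, 191 for Ereg and 52.9 for Col7a1. In experiment 4 at day 4 the library was far the lowest of its day, in CPM, at 85.9 for Ndrg1. In experiment 4 at day 4 the library was far the highest of its day, in CPM, at 7.54 for Siglecg, 12.1 for Tmem171, 4.59 for Tnnt2, 88.4 for Ankrd1, 257 for Ptgs2, 39.4 for Hbegf, 102 for Fgd3, 36.5 for Fosl1, 21.1 for Sema7a, 38.8 for Hk2, 187 for Shmt2, 50.9 for Ier3, 110.3 for Has2, 205 for Spp1 and 13.5 for Col7a1. In experiment 1 at day 2 the library was far the highest of its day, in CPM, at 1.60 for Ptchd1. In experiment 1 at day 4 the library was far the highest of its day, in CPM, at 8.71 for Agtr2, 51.4 for Dkk2 and 305 for Scd1. In experiment 2 at day 4 the library was far the highest of its day, in CPM, at 7.53 for Cyp2f2, 26.6 for Stc1, 177 for Lpl, 70.4 for Adipoq, 282 for Sfrp1, 18.1 for Plin1, 15.3 for Cidec and 25.4 for Gpd1. The total count of experiment 1 at day 2, 71091681, was above the other 5 libraries of that day (11261100 to 22487133). The change from day 2 to day 4 differed between EV and PY cells by test in 6 genes, and the difference of log2 changes, EV minus PY, was -1.90 for Apcdd1, -1.58 for Lrig1, -3.44 for Itih4, -1.14 for Tmem120b, -1.69 for Fasn and -4.51 for Gm31305.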

How the results depend on the processing

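With the experiment block kept, 3427 to 4021 genes passed under RLE scaling, DESeq2, no filter, the stricter filter and the fit of all 51 libraries (1769 to 2064 higher, 1658 to 2052 lower), and of the genes shared with the 3639 none changed direction. Without the replicate block 5 genes passed in the 12 libraries (5 higher, 0 lower, and 3296 at an unadjusted p under 0.05). In all 51 libraries 6 passed without it (5 higher, 1 lower), so the calls depend on the pairing. The block is the reported fit because the labels pair the libraries by experiment number. Same-numbered libraries also deviated together, least so in experiment 1, though some libraries matched another experiment as well or better. Leaving out 1 experiment gave 1971 to 3740 genes (1046 to 1824 higher, 925 to 1916 lower), lowest without experiment 6; fewer libraries are fitted there. In the comparison of arms, EV against P gave 0 genes under every setting except 1 without experiment 1 (range 0 to 1 over experiments left out), and EV against PY gave 6 under RLE scaling, 5 with the stricter filter, 0 with the experiment alone as the replicate block, 0 with no replicate block, and 0 to 10 with 1 experiment left out. Some genes that did not pass turned sign, and the cause was not tested: Pparg (log2 -0.0043 with RLE scaling, -0.0047 in DESeq2 and -0.12 to 0.13 with 1 experiment left out, below 0 without 1 or 3), Cd36 (-0.27 in DESeq2 and -0.46 to 0.68 with 1 left out, below 0 without 1, 2 or 3), Angptl4 (0.21 with no replicate block, and with all 51 libraries 0.0017 with the experiment as replicate block and 0.19 without it) and Ifit1 (-0.063 to 0.21 with 1 left out, below 0 without 1 or 5). In the fit of all 51 libraries with the block, fewer members passed as lower in the lists of NF-kB targets (5), p53 targets (4), heat shock (4), NRF2 (4), matrix (3) and smooth muscle (0), and fewer as higher in fat cell identity (2) and lipid synthesis (3). Depth limits the genes near 1 CPM, such as Pi16 and Cyp2f2 at day 2.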
